A study of Mus musculus with 6 samples.

Results

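Somatostatin and its receptors were examined in single cells of mouse autonomic ganglia. The 6 genes, *Sst* and the receptor genes *Sstr1*, *Sstr2*, *Sstr3*, *Sstr4* and *Sstr5*, were taken by symbol from the 32285 genes of the deposited matrices. All 6 libraries came from *Phox2bCre;RosatdT* pups at postnatal day 5, which carry a Cre driver and a Cre-dependent red fluorescent reporter. Whole ganglia were dissociated, untreated, so each library held neurons together with glial and other cells. The stellate ganglion, the sphenopalatine ganglion and a first pelvic preparation, called pelvic_1, were processed in a first round with version 2 droplet chemistry. The coeliac ganglion, the lumbar chain and a second pelvic preparation, called pelvic_2, were processed with version 3. Only the pelvic ganglion had 2 libraries and every other ganglion 1, so levels of ganglia are given side by side and no test between ganglia was run on them. The number of pups per library was not used here. The stellate, lumbar and coeliac ganglia are sympathetic and the sphenopalatine is parasympathetic.

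Somatostatin is a peptide cut from a larger precursor and secreted by inhibitory interneurons, hypothalamic neurons, pancreatic delta cells and neurons of the gut and autonomic ganglia. Its receptors couple to inhibitory G proteins, through which they lower cyclic AMP, open inwardly rectifying potassium channels and close N- and P/Q-type calcium channels. Cortistatin, the product of *Cort*, binds the same receptors. In sympathetic neurons somatostatin is known to reduce calcium current.

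*Sst* (ENSMUSG00000004366) lies on the minus strand at chr16:23889573-23890958 and has 2 exons, in GRCm38 with GENCODE M21. *Sstr1* (ENSMUSG00000035431) lies at chr12:58211772-58214444, *Sstr2* (ENSMUSG00000047904) at chr11:113619342-113626028 and *Sstr4* (ENSMUSG00000037014) at chr2:148395344-148396767, all on the plus strand. *Sstr3* (ENSMUSG00000044933) at chr15:78537008-78544685 and *Sstr5* (ENSMUSG00000050824) at chr17:25489875-25497288 are on the minus strand. All 6 are annotated as protein coding. *Sstr2* overlaps *Slc39a11* on the opposite strand, and how the counting treated reads of the opposite strand was not examined.

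The cyclic AMP response element, the DNA site through which cyclic AMP signalling is known to activate *Sst*, is shown because *Sst* is the ligand gene and *Sstr2* carries the same letters. The motif TGACGTCA, which is its own reverse complement, was searched in RefSeq windows of GRCm38.p6 from 250 bases before to 50 bases after each start site. It was found in 2 of the 5 genes with a window, *Sst* and *Sstr2*, and not in *Sstr3*, *Sstr4* or *Cort*, while *Sstr1* and *Sstr5* had no window. Of all 32851 windows, 588 (1.79%) held it. The match lay at 48 bases before the RefSeq start of *Sst* and at 58 bases before that of *Sstr2*. The printed bases are chr16:23890874-23890903 on the minus strand and chr11:113619258-113619287 on the plus strand. Those of *Sst* lie inside the GENCODE gene given above, which starts at 23890958 on this strand, so the 2 annotations place the start differently. Capitals mark the motif:
*Sst*: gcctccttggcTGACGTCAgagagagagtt
*Sstr2*: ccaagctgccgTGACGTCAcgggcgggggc
A match is a description of the letters and does not show that the site is used in these neurons.

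After filtering, 21442 cells were retained, of which 7025 were neurons and 8469 glial cells. Neurons numbered between 237 in the coeliac and 2721 in the stellate, and their median depth ran from 26660 unique molecular identifiers (UMIs, each counting 1 captured RNA) in the stellate to 108441.5 in pelvic_2. Levels are summed UMIs of the gene scaled to the summed UMIs of the same cells and written as CPM, and shares are percentages of cells with at least 1 UMI. Intervals are at 95%, exact Poisson for levels and Wilson for shares, and cover counting error only. Of 5 pancreatic islet markers *Ins1*, *Ins2* and *Iapp* were at 0 in the neurons of every library, and *Gcg* and *Hhex* reached at most 0.17 and 0.50 CPM. Of 4 sensory neuron markers *Pou4f1* and *Prdm12* reached at most 0.055 and 0.11 CPM and *Scn10a* 1.85 CPM, while *Avil* stood at 24.9 to 49.4 CPM in every library. The summed level of the 4 was 25.5 to 49.7 CPM, and its part in the results was not tested. Libraries shared at most 49 cell barcodes.

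*Sst* RNA was abundant in pelvic neurons, present in a minority of sympathetic neurons and nearly missing from sphenopalatine neurons. In pelvic neurons 64.2% of 880 cells in pelvic_1 and 64.9% of 368 cells in pelvic_2 had an *Sst* UMI, a mean of 64.6% ± 0.524 (SD, n = 2). In sympathetic ganglia the share was 24.0% of 930 lumbar neurons (95% interval 21.3 to 26.8), 25.3% of 237 coeliac neurons (20.2 to 31.2) and 18.8% of 2721 stellate neurons (17.4 to 20.3). Among 1889 sphenopalatine neurons 12 had an *Sst* UMI, 0.635%, and each of these had exactly 1. None of the 12 shared a cell barcode with a stellate or pelvic_1 cell.

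Summed levels also put the pelvic libraries first and the sphenopalatine last, with the sympathetic libraries in another order than by share. *Sst* stood at 327.8 CPM in pelvic_2 (95% interval 322.0 to 333.6) and 259.5 CPM in pelvic_1 (254.3 to 264.8). The lumbar chain followed at 69.3 CPM (67.4 to 71.2). The stellate, at 45.5 CPM (44.1 to 47.0), and the coeliac, at 43.1 CPM (40.1 to 46.2), could not be separated from each other by counting error, and the sphenopalatine was at 0.16 CPM. Every sympathetic library lay below both pelvic libraries, and this held within each round, with pelvic_1 above the stellate and the sphenopalatine and pelvic_2 above the lumbar and the coeliac. After each neuron was thinned to 4000 UMIs the shares were 30.6% and 29.1% in the pelvic libraries, 8.32% in the lumbar, 5.17% in the coeliac, 5.19% in the stellate and 0 in the sphenopalatine.

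**Figure D1:**
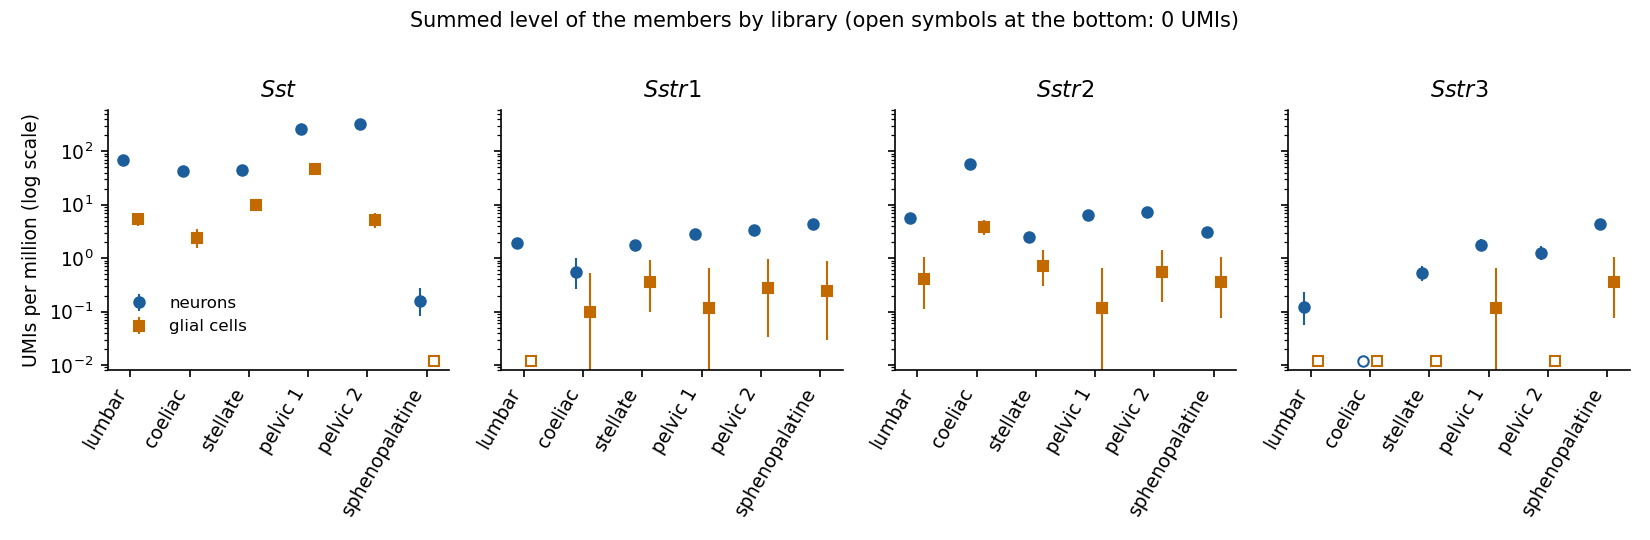
Summed levels of *Sst*, *Sstr1*, *Sstr2* and *Sstr3* in neurons (circles) and glial cells (squares) of each library, in CPM on a log axis with 95% Poisson intervals, with open symbols for 0 UMIs. *Sst* is highest in neurons of both pelvic libraries (259.5 and 327.8 CPM) and lowest in sphenopalatine neurons (0.16 CPM), and *Sstr2* is highest in coeliac neurons (59.1 CPM).

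Glial cells of the same preparations carried some *Sst* as well. Free RNA can give such UMIs in droplets of cells that do not make it. The part of free RNA, of doublets and of *Sst* made by these cells was not tested. An *Sst* UMI was found in 4.39% of lumbar, 3.03% of coeliac, 3.45% of stellate, 10.3% of pelvic_1 and 6.10% of pelvic_2 glial cells, whose median depths were 3525 to 12151 UMIs. In pelvic_1 the glial level was 47.4 CPM, about that of stellate neurons, with up to 95 *Sst* UMIs in a single glial cell, while the other glial levels were 9.94 CPM or lower. In the sphenopalatine 0 of 1568 glial cells had an *Sst* UMI, and 3 counts, the limit used here for a count of 0, would make a share of 0.191%. Fibroblast-like, endothelial cell-like, mural cell-like and macrophage-like cells over all libraries had shares of 2.74% to 8.36%. Neurons were also thinned to 4000 UMIs and glial cells to 2000. The glial shares were then 1.50% in the lumbar, 0.631% in the coeliac, 1.83% in the stellate, 5.37% in pelvic_1 and 1.22% in pelvic_2. Each lay below the thinned neuronal share of its library. A smaller depth lowers such a share, so neurons and glial cells were not compared at equal depth. In the sphenopalatine no glial or other named cell type had an *Sst* UMI, and the source of the 12 single UMIs in its neurons was not tested.

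Neurons against glial cells were tested over the 6 libraries, each giving both sums, by edgeR's quasi-likelihood test with library as a block. *Sst* was higher in neurons by 3.66 on the log2 scale (SE 0.51, Benjamini-Hochberg adjusted p = 0.000294 by edgeR). *Sstr2* was higher by 3.62 (SE 0.36, adjusted p = 4.22e-05 by edgeR). These were the 2 members that passed the filter on low counts, both called, and 4 did not pass it. *Sstr2* passed it through its neuronal sums, at 2.52 to 59.1 CPM, while its glial sums held 8 UMIs or fewer in 5 libraries. A gene that passes in this way can hardly be called lower in neurons, so its call adds little to the levels. Of all 14020 genes tested 75.2% were called and 37.2% were higher in neurons, so a call in this contrast is common. The neuronal level of *Sst* lay above the interval of the glial level in the 5 sympathetic and pelvic libraries, among them 259.5 against 47.4 CPM in pelvic_1, 45.5 against 9.94 CPM in the stellate and 327.8 against 5.18 CPM in pelvic_2. In the sphenopalatine both were near 0, with 0.16 CPM in neurons below the 0.446 CPM that is the upper Poisson limit of its glial level.

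*Sst* UMIs were concentrated in few neurons. The 10% of neurons with the most *Sst* held 95.2% of all *Sst* UMIs in the lumbar, 89.9% in the coeliac and 93.4% in the stellate library. In pelvic_1 they held 69.9% and in pelvic_2 77.9%, so pelvic *Sst* was spread over more neurons. In the lumbar library 707 neurons had no *Sst* UMI, 72 had 1, 82 had 2 to 9, 51 had 10 to 99 and 18 had 100 or more, with a highest value of 349. The stellate library held 9 neurons with 100 or more and the coeliac 2. In pelvic_1 16 neurons and in pelvic_2 29 neurons had 100 or more, and the highest single neuron had 1797 UMIs.

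**Figure D2:**
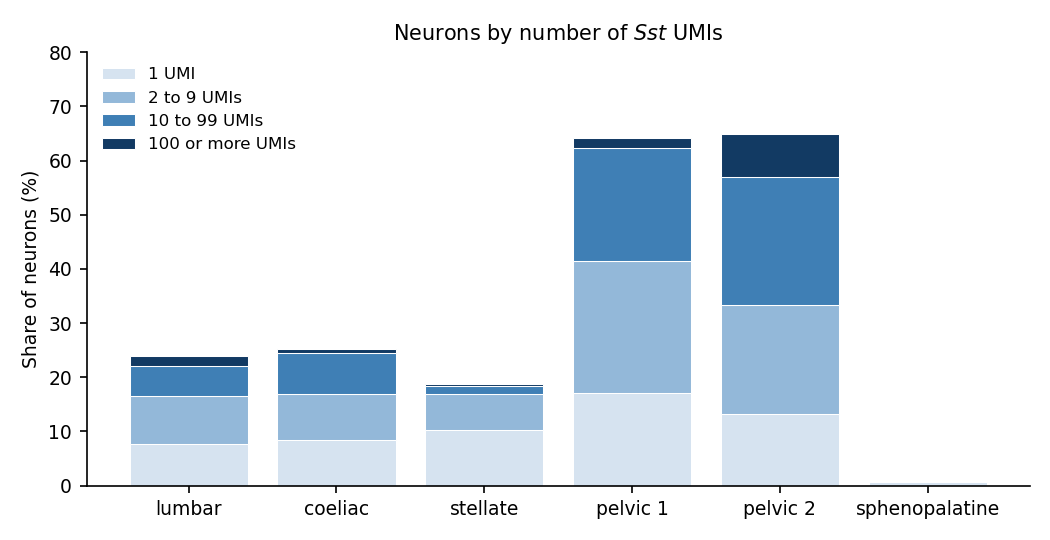
Percentage of neurons of each library with 1, 2 to 9, 10 to 99 and 100 or more *Sst* UMIs, stacked so that the bar height is the share of neurons with any. The bars reach 64.2% and 64.9% in the pelvic libraries and 18.8% to 25.3% in the sympathetic ones, and the darkest class, 100 or more UMIs, is largest in pelvic_2 (29 of 368 neurons).

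Pelvic neurons were clustered with *Sst* and the receptors kept out of the genes used, and 5 clusters were named by marker genes of the study's clusters P1 to P4. They were P1-like A (led by *Pyy* and *Cartpt*, with the haemoglobin gene *Hba-a1* next), P1-like B (*Penk* and *Gng8*), P2-like (*Grp* and *Pamr1*), P3-like (*Th*, *Slc6a2* and *Dbh*) and P4-like (*Brinp3*, *Pgm5* and *Calca*). *Sst* differed widely among them. The P4-like cluster, 53 and 32 neurons, had 1569 CPM in pelvic_1 and 2235 CPM in pelvic_2, a mean of 1902 ± 471 (SD, n = 2). The median P4-like neuron had 28 *Sst* UMIs in pelvic_1 and 109.5 in pelvic_2, and 86.8% and 100% of these neurons had at least 1.

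The P2-like cluster, 325 and 85 neurons, came next with 356 and 354 CPM. P1-like A had 96.6 and 110 CPM, and P1-like B 39.0 and 34.5 CPM. P3-like neurons had 7.09 and 2.12 CPM, with an *Sst* UMI in 20.6% and 24.2% of cells. These levels were below those of glial cells of the same libraries, 47.4 and 5.18 CPM, but the shares were above the glial 10.3% and 6.10%. P3-like neurons were deeper, with medians of 39534 and 115153 UMIs against 4149 and 11979.5 in glial cells. Whether their *Sst* is background was not tested. The order of the 5 clusters was the same in both libraries, with no overlap between neighbours. P4-like and P2-like neurons together supplied most *Sst* UMIs, 36.4% and 51.4% of all in pelvic_1 and 59.7% and 27.1% in pelvic_2.

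Over the sums of the 5 named clusters in 2 libraries, the 4 members that could be tested all differed among clusters, where 46% of all genes tested did. The filter on low counts keeps a weak gene if it is high in a single cluster. *Sstr3* had 5.31 and 3.78 CPM in P1-like B and 4.13 and 2.16 CPM in P4-like neurons. In the other named clusters it had 1.16 CPM or less. That all tested members differed is thus partly set by the filter for weak receptors. *Sst* gave an adjusted p of 5.41e-17, *Sstr2* 1.30e-09, *Sstr1* 1.58e-06 and *Sstr3* 6.40e-06, all by edgeR's quasi-likelihood F test with Benjamini-Hochberg adjustment. Against the mean of the other clusters, *Sst* was higher in P4-like neurons by 5.15 on the log2 scale (SE 0.12, adjusted p = 2.29e-17 by edgeR) and in P2-like neurons by 2.21 (SE 0.13, adjusted p = 2.85e-11 by edgeR). It fell by 1.86 in P1-like B and by 5.50 in P3-like neurons, and in P1-like A the difference was 0.00 with adjusted p = 0.996 by edgeR. In these 5 contrasts 26.1% of all genes were called for P4-like, 24.7% for P2-like, 26.7% for P3-like, 13.4% for P1-like A and 15.4% for P1-like B.

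**Figure D3:**
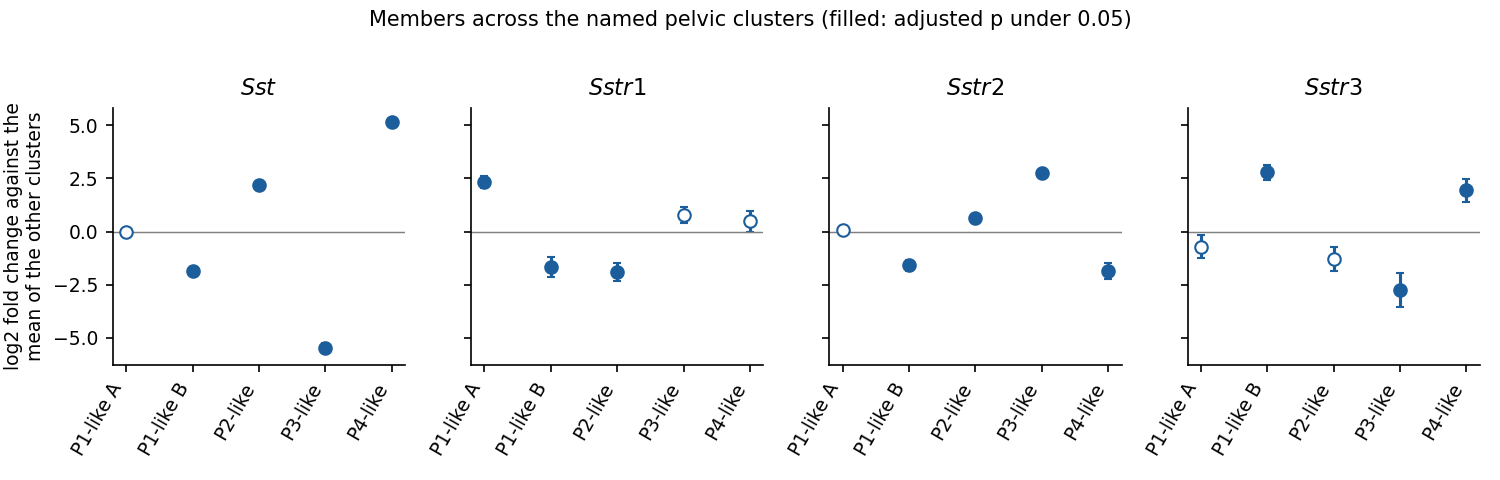
Log2 difference of *Sst*, *Sstr1*, *Sstr2* and *Sstr3* in each pelvic cluster against the mean of the other clusters, over 2 libraries. Bars are standard errors derived from edgeR's log2 difference and F statistic. Filled points passed an adjusted p of 0.05. *Sst* is highest in P4-like (5.15), *Sstr2* in P3-like (2.75), *Sstr1* in P1-like A (2.33) and *Sstr3* in P1-like B (2.78).

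The neuron rule left out some *Sst*-rich pelvic cells. In the cluster of all cells that holds P4-like neurons, 47 pelvic_1 cells were below the neuronal threshold, of which 41 had *Sst* and which together held 1356 *Sst* UMIs at 911 CPM. In pelvic_2 only 2 cells lay below it, with 463 *Sst* UMIs. Counting these cells raised pelvic *Sst* to 285 CPM in pelvic_1 and 338 CPM in pelvic_2. Cells of the same clusters that were left out for their glial markers numbered 6 in pelvic_1, with 156 *Sst* UMIs, and 4 in pelvic_2, with 1955. Counting them as well gave 288 and 385 CPM. Of all cells over both the neuronal and the glial threshold, 9 of 9 in pelvic_2 and 48 of 51 in pelvic_1 scored as likely doublets. The score was over 50% simulated doublets among the nearest neighbours. The 4 pelvic_2 cells are among those 9, so the rise to 385 CPM need not be *Sst* of missed neurons. Whether their *Sst* belongs to neurons was not tested.

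In the lumbar and stellate libraries most *Sst* RNA lay in a small cluster. Lumbar cluster 7, 37 neurons, had 1044 CPM, and every one of these neurons had *Sst*, with between 13 and 349 UMIs and a median of 95. It made up 3.98% of lumbar neurons and held 79.6% of the lumbar *Sst* UMIs. All 37 had *Slc18a3*, the vesicular acetylcholine transporter, and *Dbh*, the enzyme that makes noradrenaline, and 81.1% had *Chat*, choline acetyltransferase. A larger lumbar cluster of 229 noradrenergic neurons had *Sst* in 58.5% of cells but at 32.7 CPM.

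The stellate library held a comparable group. Stellate cluster 6, 212 neurons, had 785 CPM and held 71.9% of the stellate *Sst* UMIs, although 34.4% of its neurons had an *Sst* UMI and its median depth, 10477.5 UMIs, was below the 26660 of all stellate neurons. Of its 40 neurons with an *Slc18a3* UMI, 36 had *Sst*, with a median of 26 UMIs, and they held 82.1% of the cluster's *Sst*. Of its 172 neurons without *Slc18a3*, 37 had *Sst*. Over the whole stellate library 35 of the 52 neurons with at least 10 *Sst* UMIs had *Slc18a3*. Stellate clusters 2, 4 and 7 had *Sst* in 29.6% to 38.0% of neurons at 17.2 to 24.3 CPM.

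The coeliac library differed in where its *Sst* lay. Coeliac cluster 2, 50 neurons led by the serotonin receptor gene *Htr3a*, had *Sst* in 37 neurons at 86.7 CPM. It held 79.9% of the coeliac *Sst* UMIs, and made up 21.1% of the coeliac neurons with 39.7% of all their UMIs. Coeliac cluster 3, 36 neurons with *Th* and *Dbh* in all of them and *Chat* in none, had *Sst* in 19 neurons at 37.2 CPM. Both clusters were deep, with medians of 153158 and 124707 UMIs against 56713 over all coeliac neurons, which touches their shares but not their CPM. Each cluster is from 1 library, so no cluster of these ganglia was tested.

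**Figure D4:**
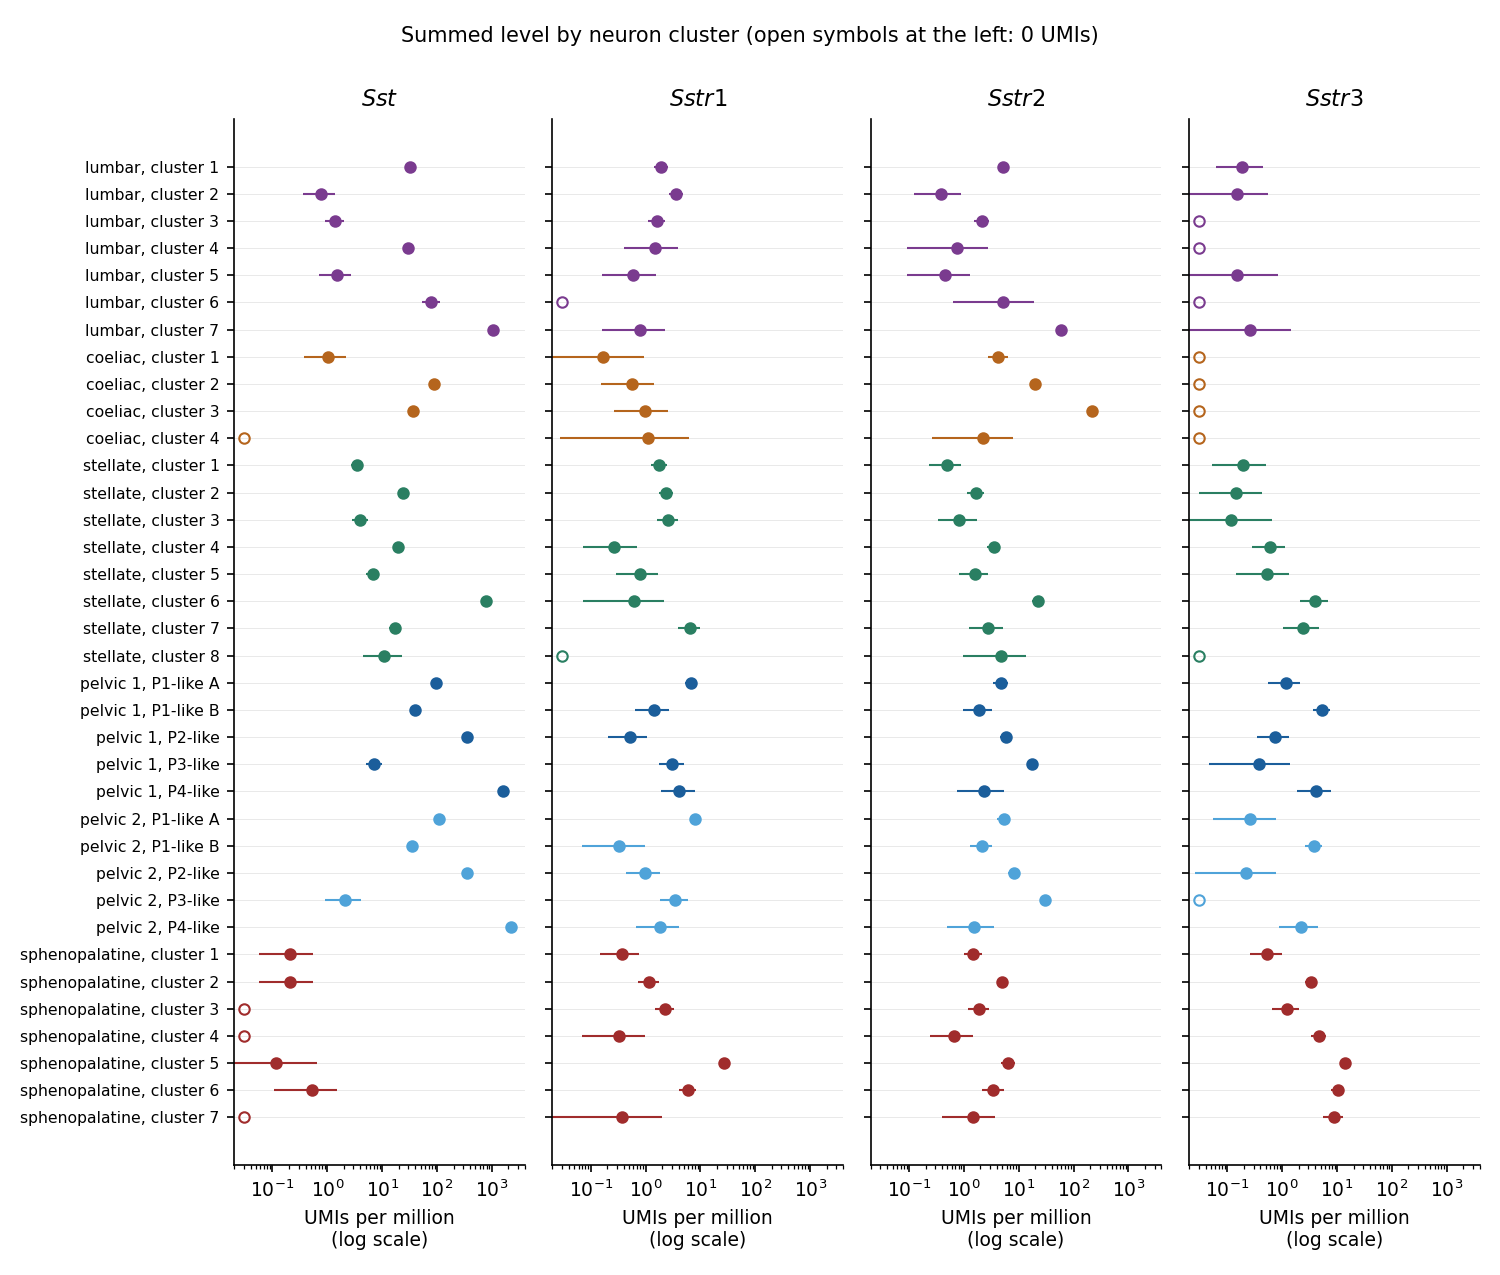
*Sst*, *Sstr1*, *Sstr2* and *Sstr3* in every neuron cluster of every library as CPM on a log axis with 95% Poisson intervals, with open symbols for 0 UMIs. The highest *Sst* values are in P4-like pelvic neurons (1569 and 2235 CPM), lumbar cluster 7 (1044 CPM) and stellate cluster 6 (785 CPM), and the highest *Sstr2* value is in coeliac cluster 3 (221 CPM).

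*Sstr2* was the receptor with the highest level in neurons of every library but the sphenopalatine, and its own level was highest in the coeliac. Coeliac neurons had 1062 *Sstr2* UMIs, 59.1 CPM, in 31.6% of neurons. Pelvic_2 had 7.43 CPM (30.7% of neurons), pelvic_1 6.35 CPM (16.9%), the lumbar 5.66 CPM (13.3%), the sphenopalatine 3.05 CPM (9.37%) and the stellate 2.52 CPM (4.30%). Glial cells had 8 UMIs or fewer in 5 libraries and 39 UMIs, 3.77 CPM, in the coeliac. In coeliac glia 4.54% of cells had *Sstr2*, so the coeliac glial level was itself the highest.

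Coeliac cluster 3 held most of the coeliac *Sstr2*. Its 36 neurons had 892 *Sstr2* UMIs, 221 CPM (95% interval 207 to 236), in 35 of 36 neurons, with a median of 24 and at most 61 per neuron, which is 84.0% of the library's *Sstr2* in 15.2% of its neurons. All 19 of its *Sst*-positive neurons also had *Sstr2*. Coeliac cluster 2 had *Sstr2* in 27 of 50 neurons, at 20.0 CPM. Lumbar cluster 7, the cholinergic cluster rich in *Sst*, was the other small group with *Sstr2* in nearly every neuron, 36 of 37, at 58.2 CPM and a median of 5 UMIs. In that cluster 36 neurons had both RNAs. Stellate cluster 6 had *Sstr2* at 22.1 CPM in 22 neurons, 20 of which had *Sst*.

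Among pelvic clusters *Sstr2* was highest in P3-like neurons, where *Sst* was lowest. P3-like neurons had 17.3 and 29.7 CPM and *Sstr2* in 34.4% and 66.7% of cells, a rise of 2.75 on the log2 scale over the mean of the other clusters (SE 0.18, adjusted p = 1.55e-10 by edgeR). P2-like neurons, at 5.82 and 8.17 CPM, were higher by 0.63 (adjusted p = 0.0232 by edgeR), a call lost with DESeq2 (adjusted p = 0.180), without the library block (0.295, edgeR) and without batch correction of the clusters (0.128, edgeR). *Sstr2* fell by 1.86 in P4-like neurons, highest in *Sst*, which had 2.30 and 1.54 CPM. It also fell by 1.60 in P1-like B (adjusted p = 0.000233 by edgeR), at 1.87 and 2.11 CPM, although *Sst* was below the mean there too. The order of the clusters by *Sstr2* was thus not the reverse of that by *Sst*.

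The receptor *Sstr1* was seen in 3.80% to 16.6% of neurons, at 4.29 CPM in the sphenopalatine, 3.30 in pelvic_2, 2.87 in pelvic_1, 1.95 in the lumbar, 1.77 in the stellate and 0.56 in the coeliac. Glial cells had at most 4 UMIs per library. Sphenopalatine cluster 5, 153 neurons with *Vip* in all of them and led by *Npy* and *Dpp10*, held 71.3% of the library's *Sstr1* UMIs, at 27.0 CPM in 97 neurons. In the pelvic ganglion *Sstr1* was highest in P1-like A, 6.81 and 7.95 CPM, a rise of 2.33 (SE 0.28, adjusted p = 2.72e-06 by edgeR). It fell by 1.67 in P1-like B (adjusted p = 0.0150 by edgeR) and by 1.91 in P2-like neurons (adjusted p = 0.00205 by edgeR). Both calls were lost without the library block, with adjusted p = 0.200 and 0.0917 by edgeR. Higher values were found in 8.27% of all genes for P1-like A, and lower values in 6.67% for P1-like B and 10.9% for P2-like. In the stellate, cluster 7 led with 6.35 CPM in 15 of 98 neurons.

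*Sstr3*, a receptor known from primary cilia of neurons, was highest in the sphenopalatine, with 333 UMIs, 4.41 CPM, in 12.6% of neurons. Both pelvic libraries followed at 1.79 and 1.24 CPM, the stellate had 0.53 and the lumbar 0.12 CPM. None of 237 coeliac neurons had an *Sstr3* UMI, for which 3 counts would make a share of 1.27%. Sphenopalatine cluster 5 again had the highest level, 13.9 CPM in 67 neurons, and cluster 6, led by *Calcb*, had 10.3 CPM. In the pelvic ganglion *Sstr3* was highest in P1-like B, 5.31 and 3.78 CPM, a rise of 2.78 (SE 0.37, adjusted p = 7.80e-06 by edgeR), where 8.75% of all genes were higher. P4-like neurons had 4.13 and 2.16 CPM, higher by 1.95 (SE 0.54, adjusted p = 0.00933 by edgeR), a call lost without the library block (adjusted p = 0.156 by edgeR). In the stellate, the *Sst*-rich cluster 6 led with 3.93 CPM from 13 UMIs.

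*Sstr4* and *Sstr5* were not detectable or close to it at this depth. *Sstr4* had 0 UMIs in all 7025 neurons, where 3 counts would make a share of 0.110% in the stellate and 1.27% in the coeliac, the library with the fewest neurons. *Sstr5* had 4 UMIs in lumbar neurons, 5 in a single pelvic_1 neuron, 1 in the coeliac, 1 in the stellate and none in pelvic_2 or the sphenopalatine. *Cort* had between 2 and 9 UMIs per library in neurons and between 3 and 16 in glial cells. Its level was lower in neurons, 0.055 to 0.28 CPM, than in glial cells, 0.27 to 1.65 CPM, in all 6 libraries, without a test.

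The sphenopalatine ganglion thus held RNA of 3 receptors and almost no *Sst*. Its cluster 5 had *Sstr1* in 97, *Sstr3* in 67 and *Sstr2* in 42 of 153 neurons.

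The pathway around the ligand and receptors was taken from a list of 32 genes for peptide processing, inhibitory G proteins, channels, cyclases, arrestins, phosphatases and peptidases. In at least 10% of neurons, 25 of the 32 were found in every library, 4 in some libraries (*Kcnj6*, *Kcnj9*, *Adcy7* and *Adcy8*) and 3 in none (*Kcnj5*, *Ptpn6* and *Mme*). In the contrast of neurons and glial cells 28 could be tested, of which 17 were called against 75.2% of all genes tested, a smaller share. Of these 14 were higher (37.2% of all genes were) and 3 lower (38% of all genes were) in neurons, with a median of 0.71 on the log2 scale against -0.02 over all genes. Of 5 enzymes that cut and trim the precursor 3 were higher, *Pcsk2* by 3.76, *Pcsk1* by 3.33 and *Cpe* by 2.14. Both calcium channel genes were higher, *Cacna1b* (N-type) by 3.84 and *Cacna1a* (P/Q-type) by 2.25. The G protein gene *Gnao1* was higher by 3.46, while *Gnai2* fell by 1.03. *Kcnj3*, a subunit of the inwardly rectifying potassium channel, was higher by 3.28. Among peptidases *Mme* (neprilysin) fell by 4.15 and *Ece1* by 2.33, while *Thop1* was higher by 0.69 and *Ide* by 0.45.

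Effector and enzyme RNA varied between the clusters that carry the members. *Kcnj3* had 49.1 and 31.5 CPM in P4-like neurons and 36.9 CPM in sphenopalatine cluster 5, against 2.73 CPM in coeliac cluster 3 and 6.01 CPM in lumbar cluster 7. *Pcsk2*, a prohormone convertase, had 103.5 and 230.1 CPM in P3-like neurons and 7.80 and 15.7 CPM in P4-like neurons. These genes were available to the clustering, so their differences between clusters are given without a test.

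To find genes that go with *Sst* inside a ganglion, neurons with high and low *Sst* were compared over the 5 libraries with *Sst* in neurons. High neurons were those at or above the 75th percentile of their library and above 0, and low neurons those at or below the 25th. In the lumbar, coeliac and stellate libraries this made every neuron with an *Sst* UMI high (223, 60 and 512 neurons), and in the pelvic libraries 220 and 92 neurons were high. The sphenopalatine library, with its 12 neurons, was left out. *Sst* chose the neurons and was not tested. Of 13113 genes 30 were called (0.229%) at an adjusted p of 0.05 and a log2 change of at least 1, 24 higher (0.183%) and 6 lower (0.0458%), all 30 in the same direction in the 5 libraries. High neurons were also deeper than low neurons in 4 of 5 libraries, for example medians of 114150 against 62597 UMIs in the lumbar, and in pelvic_1 37405.5 against 38848. With every neuron thinned to 4000 UMIs 22 genes were called. The high and low groups were those set at full depth, so thinning did not undo the choice of deeper neurons as high. Leaving out the lumbar library left 5 calls and leaving out any other library left 1. Most of the 30 calls were thus lost without any single library, and why they were lost was not tested. High neurons also came from other clusters than low ones, with 63.6% P2-like and 18.2% P4-like in pelvic_1 and 60.1% in cluster 1 and 16.6% in cluster 7 in the lumbar.

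*Calca*, which encodes calcitonin gene-related peptide, had the largest rise among the called genes, 4.23 on the log2 scale (SE 0.48, adjusted p = 0.0338 by edgeR's quasi-likelihood test). In pelvic_2 it had 263.8 CPM in high and 15.8 CPM in low neurons, in pelvic_1 69.6 and 6.45, in the lumbar 35.9 and 0.44, in the stellate 2.30 and 0.23, and in the coeliac 0.48 and 0.29 CPM. The coeliac values were therefore close to each other. *Calcb*, its beta form, rose by 3.71, from 33.7 to 581.6 CPM in pelvic_2 and from 0 to 1.07 CPM in the coeliac. The next in size were *Il19*, a cytokine (2.70), *Whrn*, a scaffold protein (2.56), *Fcmr*, an immunoglobulin M receptor (2.46), *Rai14* (1.95), *Scn7a*, a sodium channel (1.85), *Npy4r*, the pancreatic polypeptide receptor (1.78), *Map3k5*, a stress kinase (1.65), and *Susd5* (1.57).

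The 6 lower genes were *Igfbpl1* (-2.93), *Irs1*, an adaptor of the insulin receptor (-1.60), *Dcc*, the netrin receptor (-1.35), *B3gnt5* (-1.30), *Efnb3*, an ephrin (-1.09), and *Ctbp2*, a corepressor (-1.08). *Igfbpl1* had 0.79 CPM in lumbar high neurons and 4.55 CPM in low ones, and 0 and 0.98 CPM in pelvic_2. None of the 27 pathway genes tested was called. Of all 13113 genes tested 0.229% were, so no call among so few genes says little about the list.

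The receptor *Sstr2* gave 1.26 in this contrast (SE 0.60, adjusted p = 0.292 by edgeR), and *Sstr1* -0.01 (adjusted p = 0.992 by edgeR), neither of which passed. The libraries behind the *Sstr2* value went both ways, with log2 differences of 3.31 in the lumbar, 1.40 in the coeliac and 2.11 in the stellate, against -0.60 in pelvic_1 and -0.56 in pelvic_2. The difference between the pelvic and the other 3 libraries, an interaction term chosen after these values were seen, was -2.80 (SE 0.56, adjusted p = 0.0331 by edgeR), where 4.83% of all genes were called. Since the grouping came from the same values, this p-value is not an independent test of it. P3-like neurons, the pelvic cluster highest in *Sstr2*, were among the low neurons of both pelvic libraries and not among the high ones. In counts of cells, *Sstr2* was found in 36.8% of lumbar neurons with *Sst* and 5.94% of those without, in 76.7% and 16.4% in the coeliac, and in 9.18% and 3.17% in the stellate. In pelvic_1 these shares were 16.1% and 18.4%, and in pelvic_2 33.5% and 25.6%. Neurons with *Sst* were deeper in all 5 libraries, least so in pelvic_1 (medians of 39769 against 38848 UMIs), and the part of depth in these shares was not tested.

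**Figure D5:**
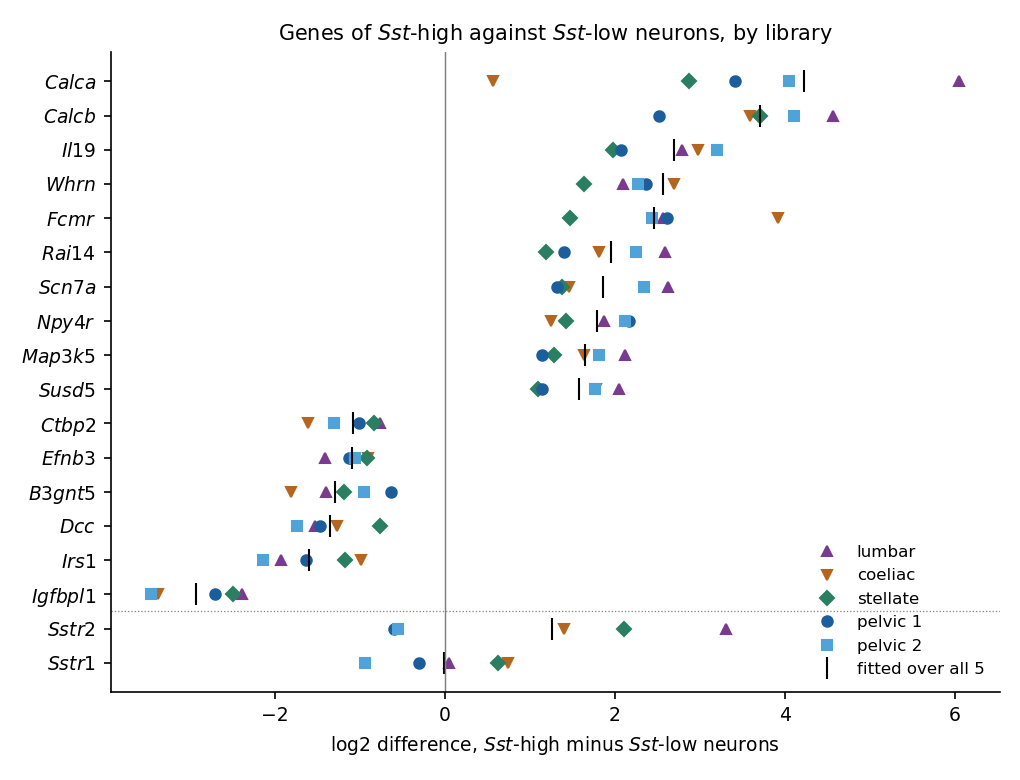
Log2 difference between *Sst*-high and *Sst*-low neurons in each of 5 libraries for 16 called genes and for *Sstr1* and *Sstr2*, with a bar for the value fitted over all 5. *Calca* is higher in all 5 libraries (4.23 in the joint test), and *Sstr2* is higher in the lumbar, coeliac and stellate libraries and lower in both pelvic libraries.

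Genes whose level went along with the members were sought over 14 neuron profiles, 4 ganglia and the 5 named clusters of both pelvic libraries. For *Sst* the closest by Pearson correlation of log2(CPM + 1) were *Rnf144a* (0.906), *Rgcc* (0.900), *Sc5d* (0.900), *Eif5a2* (0.887) and *Bag3* (0.879). For *Sstr2* they were *Rsrc1* (0.855), *Sobp* (0.851) and *Nmt2* (0.849). The profiles share libraries, so the correlations are a description.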

How the data were processed

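The authors deposited unnormalized UMI counts per gene and droplet for 6 libraries. Per the labels and the submitters' processing notes, Cell Ranger 6.0.1 and mm10 were used. Gene positions are those of GRCm38 with GENCODE M21 and promoter letters those of RefSeq GRCm38.p6.

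The filter kept droplets in which more than 1500 but fewer than 11000 genes were seen and mitochondrial UMIs made up less than 15%. Counts were normalized with sctransform 0.4.2 (Seurat 5.3.0). Neurons had a mean of *Stmn2*, *Stmn3*, *Gap43* and *Tubb3* over 3 and a mean of the study's glial marker genes, not all of which are reported here, under 1.15. Cells at or above the latter and not over 3 were glial cells. Doublets were kept. An alternative removed cells with over 50% simulated doublets among 30 neighbours. Clusters of neurons came from the Louvain method, run at resolution 0.3. For the pelvic ganglion it used 50 components with batch correction between the libraries. These components came from 3000 variable genes, from which 2 members were left out. Every other ganglion was clustered within its own library, and the number of components used there is not given here.

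UMI counts were summed per library and class and tested with edgeR 4.0.16 (quasi-likelihood, TMM, filterByExpr, library as a block), with Benjamini-Hochberg adjustment over all genes tested and calls at 0.05. Standard errors (SE) were derived as the absolute log2 difference over the square root of the test's F statistic. The self-test ran on simulated counts. With library as a block, p-values set the difference between groups against how far that difference varied from library to library. The spread of a gene was estimated partly from all genes. For the pelvic clusters this rests on 2 libraries. Since no label says whether each library held 1 animal, this spread may be technical.

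Named genes were the 6 members, *Cort*, the pathway list, the 10 called genes highest and the 10 lowest in the *Sst*-high contrast (only 6 were lower), and the genes closest to *Sst* (5) and *Sstr2* (3) among those with at least 50 CPM in a profile. The members and lists were chosen with earlier results of these data known. Alternatives were DESeq2 1.42.0, no low-count filter, no block, other cell rules, thinning, other splits and leaving out each library.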

Additional observations from a re-analysis of the deposited data

Results flagged for a closer look

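The change of *Sstr2* between *Sst*-high and *Sst*-low neurons went in opposite directions in the pelvic and the other libraries. This grouping was taken from the same values, so the p-values below are not an independent test of it. The difference, pelvic minus the lumbar, coeliac and stellate libraries, was -2.80 on the log2 scale (SE 0.56, unadjusted p = 0.00103 and adjusted p = 0.0331 by edgeR's quasi-likelihood test with Benjamini-Hochberg adjustment), tested as an interaction term that was added after the values were seen. The log2 differences were 3.31, 1.40 and 2.11 in the lumbar, coeliac and stellate libraries and -0.60 and -0.56 in the pelvic libraries, so *Sstr2* was higher in 3 of 3 of the former and lower in 2 of 2 of the latter. Median depth was 114150 UMIs in high and 62597 UMIs in low lumbar neurons, and 37405.5 and 38848 UMIs in pelvic_1. High neurons had a median of 3 *Sst* UMIs in the lumbar and coeliac and 1 in the stellate, against 21 in pelvic_1 and 53 in pelvic_2. P3-like neurons, the pelvic cluster highest in *Sstr2*, made up 33.0% and 19.4% of low neurons in pelvic_1 and pelvic_2. No high neuron was P3-like. The part of depth, of the *Sst* cut and of the clusters in the difference was not tested.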

How the results depend on the processing

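Requiring at least 2 *Sst* UMIs gave shares of 16.2% in lumbar, 16.9% in coeliac, 8.60% in stellate and 0% in sphenopalatine neurons and a pelvic mean of 49.4%. Thinning to 4000 UMIs gave 8.32%, 5.17%, 5.19%, 0% and 29.8%, in the same order. The pelvic mean, 64.6% in the text, was 63.6% with the cell rules on log counts, 63.9% with doublets removed, 65.3% with cells just under the neuronal threshold counted and 65.6% with those over the glial threshold counted too, the last 2 chosen after the data were seen. In neurons against glial cells 4 members were called with no low-count filter, where 12206 of all 24700 genes tested were called. After thinning 1 member was called and *Sstr2* was not tested, where 8004 of all 11733 genes tested were called. The count of 30 genes in *Sst*-high against *Sst*-low neurons became 175 with DESeq2, 141 with no low-count filter and 0 with a split at the 90th and 50th percentiles. Leaving out 1 library at a time gave 1 to 5 calls. The cause was not tested. The 4 members that differed among pelvic clusters were called under each alternative tested.

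No paired analysis was possible between ganglia because every ganglion but the pelvic had only 1 library. The tests have library as a block. Without the block the *Sst*-high count was 0, where 2591 genes had an unadjusted p under 0.05 with it, and calls over pelvic clusters fell from 6217 to 1880. No called result changed direction. Values near 0 that were not called did, with *Sst* in P1-like A from -0.08 to 0.03 and *Sstr1* in *Sst*-high against *Sst*-low neurons from -0.22 to 0.24. Of 336 values for single genes under alternatives, 119 lost the call. Most of these losses fell on the genes named in the *Sst*-high contrast. Each of those genes lost its call in 5 to 8 alternatives, for example *Calca* in 6 of 11 and *Dcc* in 8 of 12. The 336 also hold values of results not called in the main setting, which could not lose a call. In the pelvic clusters with 1 library left out there were no residual degrees of freedom and no test. A gene at 0 UMIs is limited by the number of neurons, 237 in the coeliac.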

Other observations

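When the likeness to *Sst* was taken over all 38 neuron clusters of all libraries, a set chosen after the data were seen, *Calca* came first (Pearson correlation of log2(CPM + 1) 0.851), followed by *B230118H07Rik* (0.809), *Bag3* (0.776), *Cabp1* (0.775) and *Resp18*, a secretory granule protein (0.752). Only *Bag3*, a chaperone partner, was also among the 5 genes closest to *Sst* over the 14 profiles. Clusters of a library share its depth, so these values are descriptions.

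A chromaffin or SIF cell-like cluster of pelvic_1 had an *Sst* UMI in 14.0% of its cells, against 10.3% of glial cells of the same library. In endothelial cell-like cells over all libraries *Cort* had 30 UMIs, in 4.11% of cells.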
